A study of Homo sapiens with 26 samples.

Results

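Expression of 9 genes from families that restrain signalling through the kinase ERK and related MAP kinases was measured by bulk RNA sequencing. The cells were 16HBE, an immortalised line from human bronchial epithelium. The 9 genes were taken by name from the 58735 genes of the deposited count table: the MAP kinase phosphatases DUSP5, DUSP6, DUSP1 and DUSP10, the Sprouty genes SPRY1, SPRY2 and SPRY4, and the Sprouty-related genes SPRED1 and SPRED2. The list was drawn up by gene family with results of all comparisons below in view and is taken as selected on the levels and fold changes described here, since which of them weighed in the choice is not recorded. Adjusted p-values are therefore printed as the output of fits to all genes and not as independent evidence about these 9.

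Extracellular signals such as epidermal growth factor and fibroblast growth factor activate ERK through receptor tyrosine kinases, RAS, RAF and MEK. Active ERK raises the transcription of several of its own inhibitors, which makes a negative feedback loop. The DUSP enzymes remove phosphate from both the threonine and the tyrosine of the MAP kinase activation loop, while Sprouty and SPRED proteins act upstream, on the route by which receptors activate RAS and RAF. In airway epithelium the same pathway is known for its part in proliferation, repair after wounding and branching of the developing lung.

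CF cells were 16HBEge, a gene-edited derivative of the line that carries DeltaF508 CFTR, and WT cells were 16HBE14o- with WT CFTR. CFTR is the apical chloride and bicarbonate channel that is defective in cystic fibrosis. The groups were CF cells in high glucose (17.5 mM, 6 libraries), CF cells in normal glucose (5.5 mM, 6 libraries), WT cells in high glucose (5 libraries) and WT cells in normal glucose (6 libraries), all kept for 7 days on Transwell filters. Another 3 libraries, of WT cells in normal glucose, carry the label not polarized, with the same plating and treatment text as the rest and nothing else about how they were grown. Cells of 2 Transwells were pooled per sample, with 250000 cells plated per well. Each CFTR genotype is represented by 1 line, so genotype and line cannot be told apart. The labels do not say that libraries of a group were separate cultures, so p-values measure the spread between these libraries, which may be technical.

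All 9 are protein-coding genes, each on GRCh38 at the position given in the deposited table. The phosphatase genes are DUSP5 (ENSG00000138166) at chr10:110497838-110511544, DUSP6 (ENSG00000139318) at chr12:89347232-89353271, DUSP1 (ENSG00000120129) at chr5:172768090-172771195 and DUSP10 (ENSG00000143507) at chr1:221701424-221742176. The Sprouty genes are SPRY1 (ENSG00000164056) at chr4:123396795-123403760, SPRY2 (ENSG00000136158) at chr13:80335976-80340951 and SPRY4 (ENSG00000187678) at chr5:142310427-142326455, and the SPRED genes are SPRED1 (ENSG00000166068) at chr15:38252326-38357249 and SPRED2 (ENSG00000198369) at chr2:65310851-65432637. DUSP5, SPRY1 and SPRED1 lie on the plus strand and the other 6 on the minus strand.

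Libraries held 14658319 to 20413839 counts, and the 9 genes together had 1725 to 5446 counts in a library. All 9 passed the low-count filter in each fit. Markers of epithelium were high in all 26 libraries, with EPCAM at 439 to 723 and CDH1 at 698 to 1270 CPM (counts scaled to library size), whereas the leukocyte markers PTPRC and CD68 reached at most 0.23 CPM each. MUC5AC, which marks mucus-secreting cells, was at 0 throughout. Of the endothelial markers, PECAM1 reached at most 0.404 CPM, whereas CDH5 was at 11.2 to 27.2 CPM. In each glucose group the libraries numbered 1 to 3 and those numbered 4 to 6 stood apart, with group means of the ribosomal protein share of counts between 3.38% and 4.21% in libraries 1 to 3 and between 2.46% and 3.3% in libraries 4 to 6. The labels do not name these sets, and the share was 4.32% ± 0.105 (SD, n = 3) in the not polarized libraries, whose set is not given. Values within each set are therefore printed beside the pooled ones for some of the results. Results printed without them may also differ between sets. The part of this share in any result was not tested. CPM in the text are scaled to the TMM-adjusted library size over all 26 libraries.

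Per base of gene length, DUSP5 was the most abundant of the 9 in every library outside the not polarized group. Its mean over the 26 libraries was 23.7 FPKM (fragments scaled to gene length and library size), with a range of 19.3 to 34. DUSP1 followed at 8.06 FPKM, SPRED2 at 5.21, DUSP10 at 4.45, SPRY2 at 3.9, SPRED1 at 2.27 and SPRY4 at 1.59 FPKM. DUSP6 and SPRY1 were the scarcest, with means of 0.775 and 0.546 FPKM. In the not polarized libraries DUSP1 was at 28.6 to 29.7 FPKM, above the 21.6 to 22.9 FPKM of DUSP5.

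**Figure D1:**
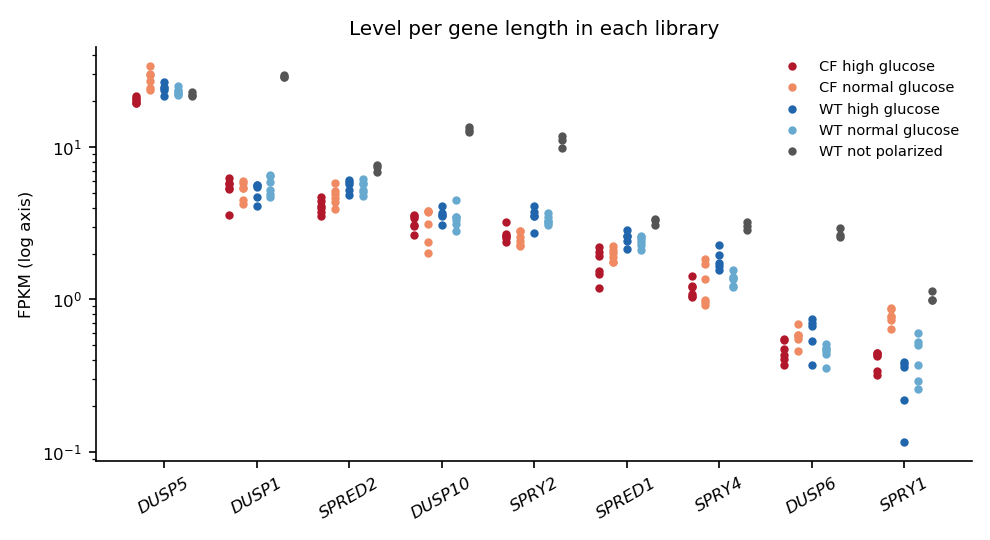
Deposited FPKM of each gene in each library on a log axis, with 1 point per library, coloured by group, and genes ordered by mean level. DUSP5 spans 19.3 to 34 FPKM over all groups, while DUSP1, DUSP10, SPRY2 and DUSP6 separate the not polarized libraries from the rest.

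Most of the 9 genes were far lower in WT cells in normal glucose than in not polarized WT cells. Of the 9, 8 were called lower and 0 higher in WT cells in normal glucose against not polarized WT cells, where a call is an adjusted p under 0.05 in edgeR's quasi-likelihood test with Benjamini-Hochberg adjustment over all tested genes. Over all 16105 genes tested, 50.0% were called, 26% higher and 24.0% lower. The median log2 fold change was -1.25 for the 9 genes and 0.02 for all tested genes. In bulk RNA, less RNA per cell and fewer cells that express the gene cannot be told apart. Some markers of other cell types also differed. The basal markers KRT5 and TP63 summed to 34.1 to 104 CPM in the 23 libraries of the glucose groups. In the not polarized ones they summed to 23.9 to 28.1 CPM. KRT5 made up nearly all of this sum. TP63 overlapped, at 0.0599 to 1.06 CPM in the glucose groups and 0.372 to 0.449 CPM in the not polarized libraries. The 4 fibroblast markers summed to 16.3 to 44.2 CPM in the glucose groups and 13.8 to 14.9 CPM in the not polarized libraries. COL1A1 carried that difference, at 14.3 to 43.2 CPM in the glucose groups and 12.5 to 13.9 CPM in the not polarized libraries. COL1A2 and PDGFRB overlapped, and DCN was at 0.0599 CPM or less. Of the 2 ciliated cell markers, FOXJ1 was at 0 to 0.78 CPM in the glucose groups and 1.07 to 2.73 CPM in the not polarized libraries, whereas TPPP3 was at 0.715 to 2.35 CPM in the glucose groups and 0.31 to 0.449 CPM in the not polarized libraries. The epithelial keratin KRT18 was at 576 to 721 CPM in the glucose groups and 1030 to 1050 CPM in the not polarized libraries. KRT19 went the other way, at 978 to 1680 CPM in the glucose groups and 918 to 940 CPM in the not polarized libraries. KRT8, EPCAM, CDH1 and CFTR overlapped between them. Together these epithelial markers summed to 5360 to 7220 CPM in the glucose groups and 6110 to 6180 CPM in the not polarized libraries. Mitochondrial genes took 2.44% to 3.59% of counts in WT cells in normal glucose and 1.73% to 1.75% in not polarized WT cells. The part of these markers and shares in the results was not tested.

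DUSP6, a cytoplasmic phosphatase that is selective for ERK, had the largest fold of the 9. It was at 2.21, 2.16, 2.07, 2.23, 2.39 and 1.67 CPM in WT cells in normal glucose, against 13.9, 12 and 12.5 CPM in not polarized WT cells. The groups were widely separated, and the log2 fold change was -2.57 ± 0.13 (SE), which is 5.94-fold lower. DUSP6 shares up to 3219 exon bases with the antisense gene AC024909.2 on the other strand, and without a stated strand setting of the counting their reads cannot be told apart. AC024909.2 itself had at most 2 counts in a library of the 4 glucose groups and 5 to 6 counts in the not polarized libraries.

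DUSP1 encodes a nuclear phosphatase that also acts on p38 and JNK and is induced by growth factors, stress and glucocorticoids. Its level was 9.55, 12.1, 10.6, 13, 9.99 and 13.4 CPM in WT cells in normal glucose, against 60.8, 58.1 and 59.1 CPM in not polarized WT cells. All 6 libraries lay far below all 3, with a log2 fold change of -2.35 ± 0.10, or 5.11-fold lower. DUSP10, a phosphatase that prefers p38 and JNK over ERK, was at 8.28 to 13.3 CPM (median 9.97) in WT cells in normal glucose, against 36.9, 39.6 and 38.4 CPM in not polarized WT cells. That is 3.74-fold lower.

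DUSP5, a nuclear phosphatase selective for ERK, was the exception. It was at 62.6, 60.1, 62, 65.9, 58.1 and 58 CPM in WT cells in normal glucose, against 60.8, 56.8 and 57.9 CPM in not polarized WT cells. The groups overlapped and the gene was not called, with a log2 fold change of 0.08 ± 0.06, a 95% interval of -0.05 to 0.21 and an adjusted p of 0.328. DUSP5 and DUSP6, both selective for ERK, thus had a log2 fold change near 0 and one of -2.57 in the same libraries. The difference between these genes was not tested.

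Among the Sprouty genes, whose products inhibit receptor tyrosine kinase signalling upstream of ERK, SPRY2 had the largest difference. It was at 9.75, 10.1, 10, 11.3, 10.6 and 9.45 CPM in WT cells in normal glucose, against 30.1, 36.1 and 34.1 CPM in not polarized WT cells, which is 3.24-fold lower with no overlap. SPRY4 averaged 8.99 ± 0.824 CPM in WT cells in normal glucose (SD, n = 6) and 20.1 ± 1.17 CPM in not polarized WT cells (SD, n = 3), or 2.21-fold lower. SPRY1 averaged 1.71 ± 0.554 CPM in WT cells in normal glucose (n = 6) and 4.16 ± 0.318 CPM in not polarized WT cells (n = 3). Its log2 fold change was -1.25 ± 0.24, or 2.38-fold lower. The size depended on the set of library numbers, at -1.74 ± 0.23 against WT libraries 1 to 3 and -0.90 ± 0.21 against WT libraries 4 to 6.

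SPRED1 and SPRED2, which bind RAS and the neurofibromin that switches it off, had the smallest called differences. SPRED1 averaged 20.1 ± 1.58 CPM in WT cells in normal glucose and 27.2 ± 1.17 CPM in not polarized WT cells, with a log2 fold change of -0.42 ± 0.08. SPRED2 averaged 28.4 ± 2.67 CPM in WT cells in normal glucose and 37.9 ± 2.24 CPM in not polarized WT cells, with a log2 fold change of -0.40 ± 0.09. In WT libraries 1 to 3 in normal glucose SPRED1 averaged 21.4 ± 0.436 CPM and SPRED2 26.2 ± 1.29 CPM. In WT libraries 4 to 6 they averaged 18.8 ± 1.04 CPM and 30.6 ± 1.21 CPM. In both genes the libraries of the groups did not overlap. The 8 calls had adjusted p-values from 3.99e-10 (DUSP1) to 0.0019 (SPRED2), and 8 genes were called lower with either set of WT libraries alone.

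**Figure D2:**
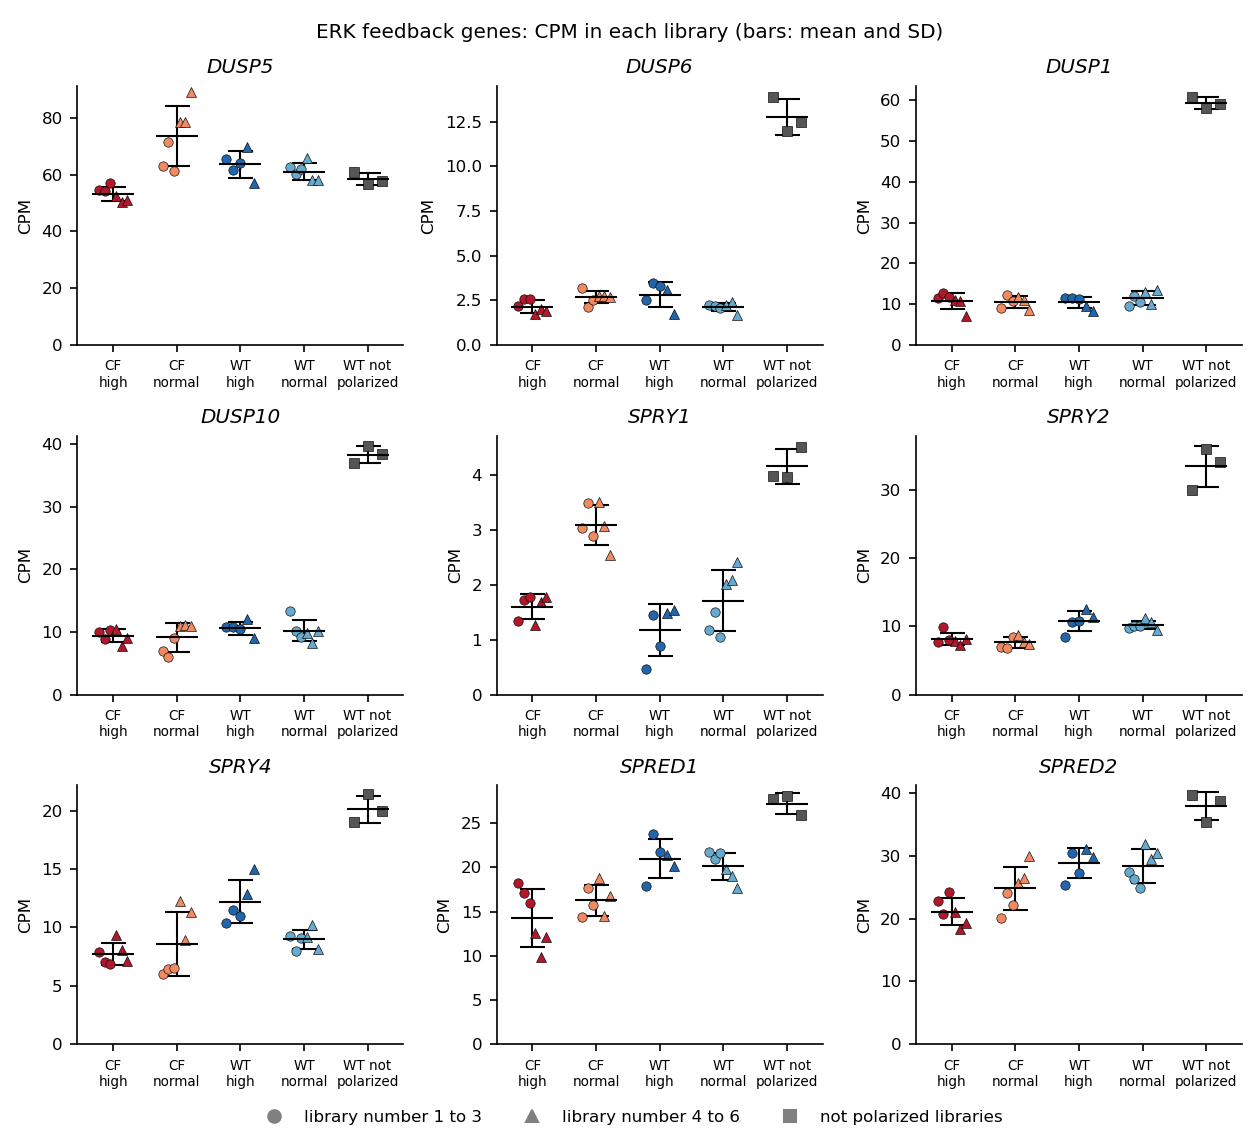
CPM of each gene in each library, with the horizontal bar at the group mean and whiskers of 1 SD; circles are libraries 1 to 3, triangles libraries 4 to 6 and squares the not polarized libraries. All genes but DUSP5 are highest in the not polarized libraries, and the CF normal glucose libraries split by set for DUSP5, with means of 65.3 CPM in 1 to 3 and 82.2 CPM in 4 to 6.

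The sequence just upstream of the transcript start is shown for DUSP1 and SPRY2, at the upstream-most start where a gene had several. These are the phosphatase and the Sprouty gene with called differences whose windows held the most motif matches and no annotated exon. Sequences are from RefSeq on GRCh38.p14 and run 5′ to 3′ on the minus strand, up to the base before the start. Capitals mark TGACG or its reverse complement (the core of the cyclic AMP response element) and CCGGAA or its reverse complement (a core bound by ETS factors, which ERK phosphorylates). The DUSP1 window is chr5:172771196-172771395 and the SPRY2 window is chr13:80341127-80341326.
DUSP1: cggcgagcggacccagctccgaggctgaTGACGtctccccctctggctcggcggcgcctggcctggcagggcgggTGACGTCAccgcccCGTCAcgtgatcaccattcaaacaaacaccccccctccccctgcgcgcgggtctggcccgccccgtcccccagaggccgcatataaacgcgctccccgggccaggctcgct
SPRY2: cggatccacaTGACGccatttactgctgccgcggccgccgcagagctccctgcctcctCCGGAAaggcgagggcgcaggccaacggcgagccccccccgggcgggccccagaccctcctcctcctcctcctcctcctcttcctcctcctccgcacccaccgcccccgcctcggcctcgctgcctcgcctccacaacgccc
DUSP1 held TGACG cores at -172, -125, -122 and -111 from the start, where the pair at -125 and -122 overlap as opposite strands of 1 palindrome. SPRY2 held a TGACG core at -190 and CCGGAA at -142. This SPRY2 start, at chr13:80341126, lies outside the deposited span of the gene, which ends at 80340951. Windows at the other SPRY2 starts held neither motif.

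The RefSeq promoter table covered 8 of the 9 genes with 13 starts, each with a window of 300 bases, and DUSP5 was not matched. TGACG was found at 5 of the 13 starts, in DUSP1, DUSP10, SPRY2, SPRY4 and SPRED2, against 24.6% of 35116 promoter windows of the same length. CCGGAA was found at 2 of 13 starts (SPRY1 and SPRY2), against 17.2% of windows. TGANTCA, the site of AP-1 (the FOS and JUN dimer), was found at 1 of 13 starts (SPRED2), against 7.71% of windows. Both strands were searched, and TGACG and TGANTCA can share their first letters. A match describes these letters only.

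Genes that ERK activity is known to induce differed in the same comparison. Of 15 tested, 11 were lower and 2 higher in WT cells in normal glucose, with a median log2 fold change of -1.37. FOS, which encodes a subunit of AP-1, averaged 2.87 ± 0.703 CPM in WT cells in normal glucose and 122 ± 2.52 CPM in not polarized WT cells, a log2 fold change of -5.38 ± 0.13. The zinc finger factor EGR1 averaged 85.9 ± 10.9 CPM in WT cells in normal glucose and 496 ± 12.9 CPM in not polarized WT cells, and EGR3 averaged 1.37 ± 0.183 CPM in WT cells in normal glucose and 5.36 ± 0.727 CPM in not polarized WT cells. CCND1, MYC, FOSL1, IER2, PHLDA1, ETV4 and ETV5 were among the others called lower, with log2 fold changes from -1.69 (CCND1) to -0.83 (ETV4), while IER3 (0.69) and EPHA2 (0.16) were called higher. FOS, EGR1 and EGR3 are named as the 3 called genes of this list with the largest changes, and the rest were picked after their values were seen.

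The MAP kinase phosphatases outside the 9 genes did not all point the same way. Of 5 tested, 1 was lower and 2 were higher. DUSP4, another nuclear phosphatase induced by ERK, averaged 10.6 ± 0.996 CPM in WT cells in normal glucose and 50.6 ± 1.78 CPM in not polarized WT cells. DUSP16, which prefers JNK, averaged 47.7 ± 3.92 CPM in WT cells in normal glucose and 18.3 ± 0.605 CPM in not polarized WT cells, and DUSP8, also a JNK and p38 phosphatase, averaged 4.75 ± 0.629 CPM in WT cells in normal glucose and 2.59 ± 0.317 CPM in not polarized WT cells.

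Against the 50.0% of all tested genes called in this comparison, the shares called in the lists of other inhibitors and of the cascade are near the background. Of 13 other inhibitors of the pathway 2 were higher and 5 lower. SPRED3 had a log2 fold change of 1.03 ± 0.23, opposite in sign to SPRED1 and SPRED2. Of 20 genes of the RAS, RAF, MEK and ERK cascade itself, 5 were higher and 7 lower, with a median of -0.12. Among 11 receptors and ligands upstream, 5 were higher and 3 lower. The EGF receptor ligands differed in direction: EREG (-1.40 ± 0.07), AREG (-1.3 ± 0.10) and HBEGF (-1.20 ± 0.09) were called lower, and TGFA, named after its value was seen, was called higher (0.20 ± 0.07, adjusted p = 0.0243). The receptor genes FGFR3 (1.14 ± 0.08), EGFR (0.96 ± 0.07), ERBB2 (0.50 ± 0.06) and MET (0.18 ± 0.06), also named after their values were seen, were called higher.

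Of 13 genes of the p38 and JNK cascades, 1 was higher and 7 lower, with a median of -0.19. Glucocorticoids are known inducers of DUSP1, and of 6 tested genes that they induce 1 was higher and 3 lower. Over all tested genes 50.0% were called in this comparison, 26% higher and 24.0% lower. The departure of either list from these shares was not tested, nor was any bearing of the glucocorticoid list on DUSP1. SGK1 averaged 6.71 ± 0.434 CPM in WT cells in normal glucose and 24.6 ± 2.22 CPM in not polarized WT cells, TSC22D3 had a log2 fold change of -1.70 ± 0.15, and PER1 one of 1.12 ± 0.11.

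**Figure D3:**
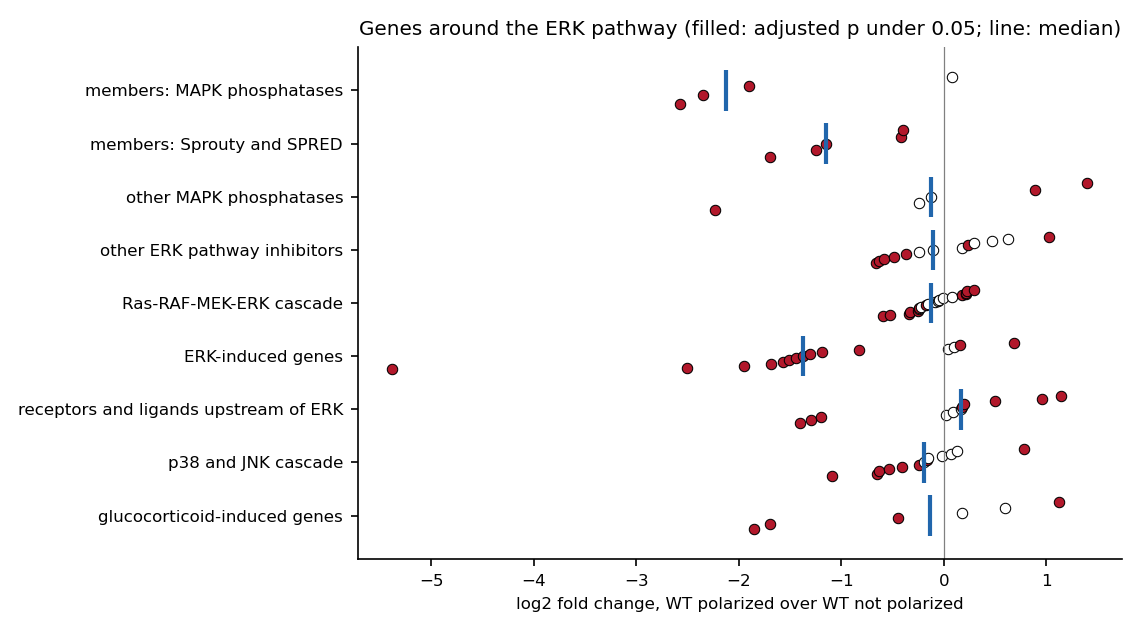
Log2 fold change of each tested gene in the lists around the ERK pathway, WT cells in normal glucose over not polarized WT cells; filled points were called and the blue line is the median of each list. Medians of the phosphatase, Sprouty and ERK-induced genes (the last at -1.37) lie well left of 0, although DUSP5 (0.08) and IER3 (0.69) lie right of it, while medians of the other lists lie between -0.19 and 0.17.

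High glucose changed 2 of the 9 genes in CF cells, both downward. DUSP5 and SPRY1 were called lower in CF cells in high glucose than in CF cells in normal glucose, and 0 were called higher. Over all 16338 genes tested, 8.41% were called, 4.27% higher and 4.14% lower. The median log2 fold change of the 9 genes was -0.18, and that of all tested genes was 0.

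DUSP5 was at 54.7, 54.2, 56.9, 52.5, 50.5 and 51 CPM in CF cells in high glucose, against 63.1, 71.4, 61.3, 78.7, 78.5 and 89.3 CPM in CF cells in normal glucose. All libraries in high glucose lay below all in normal glucose. The log2 fold change was -0.46 ± 0.07, or 1.38-fold lower, with an adjusted p of 0.000124 in edgeR's test. Within sets it was -0.25 ± 0.07 in libraries 1 to 3 and -0.68 ± 0.08 in libraries 4 to 6, and both were called.

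SPRY1 was at 1.35, 1.72, 1.78, 1.26, 1.68 and 1.77 CPM in CF cells in high glucose, against 3.04, 3.49, 2.89, 3.51, 3.07 and 2.55 CPM in CF cells in normal glucose. These levels rest on 21 to 33 counts per library in high glucose and 36 to 57 in normal glucose, and they did not overlap. The log2 fold change was -0.95 ± 0.22 (1.93-fold lower, adjusted p = 0.00681). It was -0.95 in libraries 1 to 3 and -0.95 in libraries 4 to 6, each called.

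The other 7 genes were not called between glucose levels in CF cells. Their log2 fold changes ran from -0.31 ± 0.16 (DUSP6) to 0.09 ± 0.10 (SPRY2), with adjusted p-values of 0.131 or more. SPRED2 was the nearest to a call, at 21.1 ± 2.2 CPM in CF cells in high glucose and 24.8 ± 3.47 CPM in CF cells in normal glucose (SD, n = 6 each). It was called lower in the fit with a term for the set of libraries (-0.22 ± 0.08, adjusted p = 0.0493) and without CF normal glucose library 1 (-0.29 ± 0.09, adjusted p = 0.0459). The sets of libraries differed here. In libraries 4 to 6 alone SPRY4 (-0.40 ± 0.14), SPRED1 (-0.53 ± 0.11) and SPRED2 (-0.48 ± 0.09) were also called lower, for 5 in all, whereas in libraries 1 to 3 their log2 fold changes were 0.19 ± 0.14, 0.10 ± 0.11 and 0.02 ± 0.10 and none was called. SPRY4 averaged 7.26 ± 0.532 CPM in CF cells in high glucose and 6.31 ± 0.26 CPM in CF cells in normal glucose in libraries 1 to 3, whereas in libraries 4 to 6 it averaged 8.17 ± 1.14 CPM in CF cells in high glucose and 10.8 ± 1.74 CPM in CF cells in normal glucose.

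In WT cells 0 of the 9 genes were called between glucose levels by edgeR, 0 by DESeq2 as well, and 3 had an unadjusted p under 0.05. Over all tested genes 2.96% were called, 1.49% higher and 1.47% lower. The median log2 fold change was 0.06 for the 9 genes and 0 for all. SPRY4 was at 10.4, 11.5, 11, 12.9 and 15 CPM in WT cells in high glucose, against 9.29, 7.97, 9.05, 9.21, 10.2 and 8.16 CPM in WT cells in normal glucose. The groups did not overlap, but the log2 fold change of 0.44 ± 0.15 had an adjusted p of 0.115. It was 0.33 ± 0.13 in libraries 1 to 3 and, called, 0.62 ± 0.14 in libraries 4 to 6, and a fit with a term for the set called it as well (0.47, adjusted p = 0.00571).

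DUSP6 averaged 2.82 ± 0.706 CPM in WT cells in high glucose (SD, n = 5) and 2.12 ± 0.246 CPM in WT cells in normal glucose (SD, n = 6), with a log2 fold change of 0.41 ± 0.17 and an adjusted p of 0.217. SPRY1 had a log2 fold change of -0.54 ± 0.25 with an adjusted p of 0.282. DUSP5, called in CF cells, was at 56.9 to 69.6 CPM in WT cells in high glucose and at 58 to 65.9 CPM in WT cells in normal glucose, so the groups overlapped (0.06 ± 0.07, 95% interval -0.08 to 0.21).

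Among the listed neighbours of the pathway, DUSP4 was called higher in WT cells in high glucose, at 15.1 ± 0.585 CPM, against 10.6 ± 0.996 CPM in WT cells in normal glucose. ETV4, an ETS factor induced by ERK, was also called higher (0.44 ± 0.12) and IER3 lower (-0.51 ± 0.09), which made 1 higher and 1 lower of 15 ERK-induced genes. In CF cells 5 of the 15 were lower and 0 higher, with IER3 (-0.56 ± 0.08), FOSL1 (-0.49 ± 0.15) and EPHA2 (-0.36 ± 0.09) as the largest. The shares over all tested genes were 1.49% higher and 1.47% lower in WT cells, and 4.27% higher and 4.14% lower in CF cells. ERRFI1, a feedback inhibitor of the EGF receptor, averaged 595 ± 48.8 CPM in CF cells in high glucose and 744 ± 35.2 CPM in CF cells in normal glucose, and was called lower.

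The difference between the glucose responses was tested as an interaction, CF minus WT. edgeR called 0 of the 9 genes, 3 of 9 had an unadjusted p under 0.05, and DESeq2 called 1 (DUSP5). Over all genes 0.0367% were called, 0.0122% higher and 0.0245% lower, so few genes passed this test at all. DUSP5 had the largest departure for its error, with an interaction of -0.53 ± 0.10 on the log2 scale, a 95% interval of -0.73 to -0.32 and an adjusted p of 0.064 in edgeR's test (0.00292 in DESeq2). It was called without CF high glucose library 3, CF normal glucose library 1 or CF normal glucose library 3, and with a term for the set of libraries (adjusted p = 0.0018). DUSP6 (-0.71 ± 0.23, adjusted p = 0.389) and SPRY4 (-0.59 ± 0.21, adjusted p = 0.487) were the other 2 with an unadjusted p under 0.05. In libraries 4 to 6 alone 4 genes were called lower, namely DUSP5 (-0.76), SPRY4 (-1.02), SPRED1 (-0.68) and SPRED2 (-0.50), against 0 in libraries 1 to 3 alone, where DUSP5 was at -0.3 ± 0.1.

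**Figure D4:**
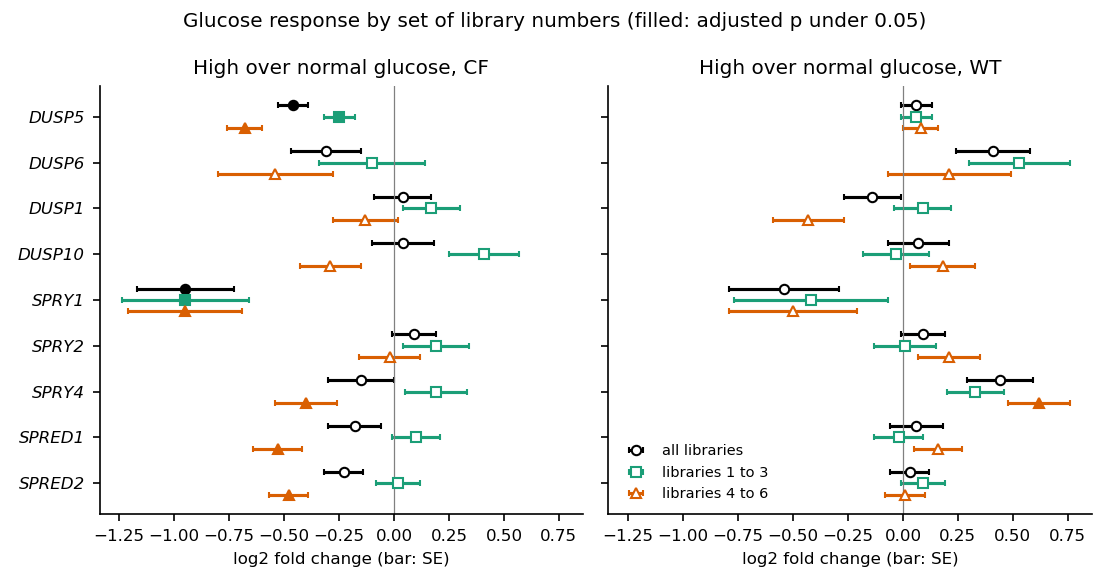
Log2 fold change of high over normal glucose with its SE, in CF cells (left) and WT cells (right), over all libraries and in each set of library numbers; filled symbols were called. DUSP5 and SPRY1 in CF cells are below 0 in both sets, while SPRY4, SPRED1 and SPRED2 in CF cells are called only in the fit of libraries 4 to 6.

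CF cells in high glucose had less mRNA of 5 of the 9 genes than WT cells in high glucose. SPRY4, SPRED1, SPRED2, SPRY2 and DUSP5 were called lower and 0 higher, where 19.9% of all tested genes were called, 9.35% higher and 10.6% lower. The median log2 fold change was -0.38 for the 9 genes and 0.01 for all tested genes. This comparison uses the same libraries in high glucose as the glucose comparisons above.

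SPRY4 was at 7.87, 7, 6.9, 9.37, 8.07 and 7.08 CPM in CF cells in high glucose, against 10.4, 11.5, 11, 12.9 and 15 CPM in WT cells in high glucose. The groups did not overlap, with a log2 fold change of -0.66 ± 0.15 (adjusted p = 0.00195), and it was called in both sets, at -0.60 in libraries 1 to 3 and -0.79 in libraries 4 to 6.

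SPRED1 was at 18.2, 17.1, 16, 12.6, 9.82 and 12.1 CPM in CF cells in high glucose, against 17.9, 23.8, 21.7, 21.4 and 20.1 CPM in WT cells in high glucose. The lowest WT library, number 1, fell within the CF range. The log2 fold change was -0.55 ± 0.12 (adjusted p = 0.00124), with -0.30 ± 0.11 (adjusted p = 0.0539) in libraries 1 to 3 and -0.86 ± 0.12 in libraries 4 to 6. SPRED2 was at 18.3 to 24.3 CPM (median 21) in CF cells in high glucose, against 25.4, 30.5, 27.2, 31.1 and 29.8 CPM in WT cells in high glucose, with no overlap. Its log2 fold change was -0.45 ± 0.09 (adjusted p = 0.000762), and -0.29 and -0.65 in libraries 1 to 3 and 4 to 6, both called.

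SPRY2 averaged 8.17 ± 0.903 CPM in CF cells in high glucose (SD, n = 6) and 10.8 ± 1.49 CPM in WT cells in high glucose (SD, n = 5), a log2 fold change of -0.40 ± 0.10 with an adjusted p of 0.00459. In libraries 1 to 3 it was -0.22 ± 0.14 and not called, and in libraries 4 to 6 -0.63 ± 0.14 and called. DUSP5 averaged 53.3 ± 2.42 CPM in CF cells in high glucose and 63.6 ± 4.73 CPM in WT cells in high glucose, with overlap at the lowest WT library. Its log2 fold change of -0.26 ± 0.07 (adjusted p = 0.0142) lost its call without WT high glucose library 4 (-0.22, adjusted p = 0.0657), and it was -0.21 and -0.32 in libraries 1 to 3 and 4 to 6, both called. DUSP1, DUSP6, DUSP10 and SPRY1 were not called, with log2 fold changes of 0.06, -0.38, -0.17 and 0.44 and adjusted p-values of 0.825, 0.118, 0.483 and 0.25. DUSP6 was called lower without WT high glucose library 5 (-0.52 ± 0.16, adjusted p = 0.0198).

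In normal glucose 3 of the 9 genes were called between CF and WT cells, 2 higher and 1 lower in CF cells. Of all tested genes 24.4% were called, 11.4% higher and 13.0% lower, so 3 of 9 is near the share among all genes. The median log2 fold change was -0.12 for the 9 and 0 for all. The WT cells here are also the ones set against the not polarized cells.

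SPRY1 was at 3.04, 3.49, 2.89, 3.51, 3.07 and 2.55 CPM in CF cells in normal glucose, against 1.17, 1.5, 1.04, 2.02, 2.09 and 2.42 CPM in WT cells in normal glucose. The groups did not overlap, although the WT libraries 4 to 6 came near the CF ones. The log2 fold change was 0.85 ± 0.22 (1.8-fold, adjusted p = 0.00432), with 1.36 ± 0.30 in libraries 1 to 3 and 0.48 ± 0.24 (not called) in libraries 4 to 6.

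DUSP5 averaged 73.7 ± 10.6 CPM in CF cells in normal glucose and 61.1 ± 3.02 CPM in WT cells in normal glucose (SD, n = 6 each), with overlapping libraries. Its log2 fold change of 0.27 ± 0.07 (adjusted p = 0.00544) came with 0.09 ± 0.07 (not called) in libraries 1 to 3 and 0.44 ± 0.07 in libraries 4 to 6. DUSP5 was thus called higher in CF cells in normal glucose and lower in CF cells in high glucose. SPRY2 was at 6.85 to 8.72 CPM (median 7.55) in CF cells in normal glucose and at 9.45 to 11.3 CPM (median 10.1) in WT cells in normal glucose, with no overlap. It was called lower at -0.41 ± 0.10 (adjusted p = 0.00265), and within sets at -0.41 and -0.40, both called.

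SPRED1 just missed a call (-0.30 ± 0.12, adjusted p = 0.0572), and DESeq2 called it (adjusted p = 0.0426). It was also called without CF normal glucose library 4 or WT normal glucose library 6 (-0.33 each, the lowest adjusted p = 0.0445), and SPRED2 was called without CF normal glucose library 6 (-0.25, adjusted p = 0.044). With a term for the set of libraries both were called lower, at -0.30 ± 0.09 (SPRED1, adjusted p = 0.012) and -0.20 ± 0.08 (SPRED2, adjusted p = 0.0477). In libraries 1 to 3 alone 5 genes were called, SPRY1 higher and DUSP10 (-0.57 ± 0.16), SPRY2, SPRY4 (-0.46 ± 0.14) and SPRED1 (-0.42 ± 0.11) lower. In libraries 4 to 6 alone DUSP10 and SPRY4 were both at 0.23 ± 0.14 and not called. DUSP10 averaged 7.26 ± 1.56 CPM in libraries 1 to 3 and 11 ± 0.072 CPM in libraries 4 to 6 of CF cells in normal glucose.

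**Figure D5:**
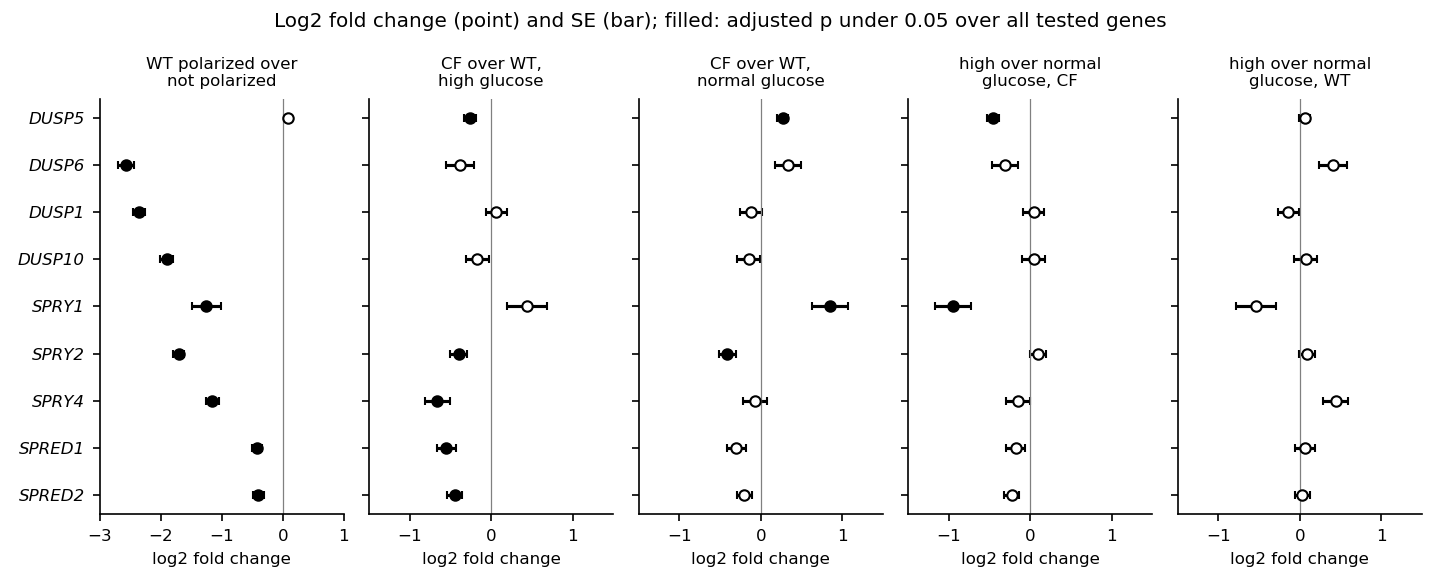
Log2 fold change and SE of each gene in 5 comparisons; filled points were called over all tested genes, and the axis of the left panel is wider. DUSP6 and DUSP1 reach -2.57 and -2.35 against not polarized cells, whereas differences by line or glucose stay between -0.95 and 0.85, both of them SPRY1.

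Among the other genes of the pathway, LRIG1, which limits ERBB receptors, averaged 6.97 ± 1.23 CPM in CF cells and 1.76 ± 0.374 CPM in WT cells in high glucose, and 6.5 ± 0.86 CPM in CF cells and 1.84 ± 0.454 CPM in WT cells in normal glucose. Of 5 tested MAP kinase phosphatases outside the 9 genes, 1 was higher and 2 were lower in CF cells at each glucose level. DUSP4 averaged 7.19 ± 0.819 CPM in CF cells and 15.1 ± 0.585 CPM in WT cells in high glucose. In normal glucose it averaged 6.64 ± 1.21 CPM in CF cells and 10.6 ± 0.996 CPM in WT cells. DUSP8 was lower in CF cells (-1.28 ± 0.22 in high and -1.01 ± 0.21 in normal glucose). DUSP9, a cytoplasmic ERK phosphatase, was higher in CF cells at both glucose levels (0.78 ± 0.16 in high and 1.04 ± 0.15 in normal glucose). CCND1, the cyclin D1 gene, was lower in CF cells (-1.42 ± 0.09 in high and -1.15 ± 0.09 in normal glucose). Of 15 ERK-induced genes 4 were higher and 6 lower in CF cells in high glucose, and 5 higher and 4 lower in normal glucose. The shares over all tested genes were 9.35% higher and 10.6% lower in high glucose, and 11.4% higher and 13.0% lower in normal glucose.

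Ordered by group mean, 8 of the 9 genes were highest in not polarized WT cells, and each of these 8 was separated there from the next group without overlap. Between neighbours, the remaining order was mostly not resolved. For DUSP1, DUSP6, DUSP10, SPRY2, SPRED1 and SPRED2, each pair of neighbouring groups among the 4 glucose groups overlapped. Groups further apart in the order could still be separate. Examples are SPRY2 between CF and WT cells in normal glucose and SPRED2 between CF and WT cells in high glucose. SPRY1 had a second step, with CF cells in normal glucose above the other 3 groups, and SPRY4 had one between WT cells in high glucose and the next group, WT cells in normal glucose, although CF cells in normal glucose (6.02 to 12.3 CPM) reached into the range of WT cells in high glucose (10.4 to 15 CPM). DUSP5 had no step, and its highest group mean was 1.38 times its lowest, against 6.04 times for DUSP6, 5.7 for DUSP1, 4.36 for SPRY2 and 1.8 for SPRED2.

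Likeness between genes was described as the root mean square difference of log2 CPM, centred on each gene's mean, over the 26 libraries. Libraries share depth, line and group here, so the distances carry no test. They are also not scaled to how much a gene varies, so distances of different genes are not directly comparable. The median distance to 13505 other protein-coding genes was 0.38 for SPRED2 and 0.42 for SPRED1, against 0.75 for SPRY1 and 0.84 for DUSP1. Within the 9 genes the closest pairs were SPRED1 with SPRED2 (0.19) and DUSP10 with SPRY2 (0.25), and the farthest was DUSP1 with DUSP5 (0.86). SPRY1 was at 0.66 or more from each of the others. Among 13505 other protein-coding genes, the nearest to DUSP1 were ALDH2 (0.26) and ACOXL (0.34), and the nearest to DUSP6 were MAOA (0.32) and SNAI2 (0.34). DUSP10 was nearest to ARSJ (0.21) and VDR (0.23), SPRY2 to FAM84B (0.19) and DYSF (0.21), and SPRY1 to BEST1 (0.39) and JUN (0.41). SPRY4 was nearest to HBEGF (0.18) and PTPRM (0.19), SPRED1 to VAPA and KAT5 (0.18 each), and SPRED2 to PATL1 (0.10) and TUBGCP3 (0.12). No such gene was sought for DUSP5, whose group means differed by less than 1.5-fold.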

How the data were processed

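RNA captured with poly-T beads was sequenced and aligned with HISAT2 to hg38, per the submitters' processing notes and the labels' protocols. Strand setting, counting tool and aligner version were not given in the sources used here. The authors deposited raw counts per gene and FPKM, which they scaled to gene length and library size. Identifiers and positions of 58724 of 58735 genes matched GENCODE release 29, on GRCh38.

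Tests on the counts used edgeR 4.0.16 under R 4.3.3 (TMM factors, filterByExpr with minimum count 10 and total 15, robust quasi-likelihood fit, Benjamini-Hochberg adjustment, called at adjusted p under 0.05). The 23 glucose libraries shared a fit with 19 residual degrees of freedom, and the comparison with not polarized cells had its own, with 7. The pipeline was tested on simulated data.

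The members, lists and tests were chosen with earlier results of these data known. Named list genes are up to 3 called genes per list and comparison with the largest change and a mean of at least 1 CPM. Likeness was sought for members with group means at least 1.5-fold apart. Alternatives were DESeq2 1.42.0, RLE factors, other low-count filters, limma 3.58.1 on log2(FPKM + 0.1), a term for the library set, each set alone, a replicate block, other libraries in the fit, and each library left out. Library numbers were not taken as pairs. No 2 libraries of a group agreed within counting noise.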

Additional observations from a re-analysis of the deposited data

Results flagged for a closer look

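SPRY2 in CF cells in high glucose had 1 library apart from the others. Library 2 was at 9.89 CPM, whereas the other 5 ran from 7.26 to 8.21 CPM, and the gap was 0.639 of the group's range. It was 1 flag among 36 groups of libraries examined for the 9 genes, and chance flags about 1 in 20 groups. Without this library SPRY2 was still called lower in CF than in WT cells in high glucose.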

How the results depend on the processing

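The 8 lower genes in WT cells in normal glucose against not polarized cells were called under every alternative run. Counts of called genes changed elsewhere. For glucose in WT cells 1 gene (SPRY4) was called in place of 0 with the library set term, in libraries 4 to 6 alone, with the replicate block and with the 2 WT groups alone in the fit. For glucose in CF cells, where 2 were called, 5 were called in libraries 4 to 6 alone, 3 with the set term, and 2 to 3 with 1 library left out. For the interaction 1 (DUSP5) was called by DESeq2, with the set term and with the replicate block, and 4 in libraries 4 to 6 alone; leaving out 1 library gave 0 to 1. In normal glucose 5 were called between the lines with the set term and 5 in libraries 1 to 3 alone, and in high glucose 3 in libraries 1 to 3 alone; leaving out 1 library gave 3 to 4 in normal and 4 to 6 in high glucose. The cause of these shifts was not tested.

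Library numbers share only a number. Over genes, which are not independent, libraries of the same number had a mean residual correlation of 0.202, 0.233, 0.137, 0.202 and -0.00685 in the 5 comparisons of groups. Pairs of different numbers within the same set had 0.198, 0.212, 0.147, 0.203 and 0.00137, where not polarized libraries were paired with either set. In none of the comparisons was every pair of the same number above 0.1.

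Of 522 log2 fold changes under other settings 482 kept direction and call, 4 lost and 23 gained a call, and 13 changed sign, 0 of them called. In libraries 1 to 3 alone the sign changed for glucose in WT cells in DUSP1 (0.09), DUSP10 (-0.03) and SPRED1 (-0.02), for glucose in CF cells in SPRY4 (0.19), SPRED1 (0.10) and SPRED2 (0.02), and for the interaction in DUSP10 (0.44) and SPRED1 (0.11). In libraries 4 to 6 alone it changed for glucose in CF cells in DUSP1 (-0.13), DUSP10 (-0.29) and SPRY2 (-0.02), and between the lines in normal glucose in DUSP10 (0.23) and SPRY4 (0.23). Of 702 values with 1 library left out, 679 kept direction and call, 1 lost and 8 gained a call, and 14 changed sign, uncalled. The ranges of those were -0.03 to 0.14 (DUSP1) and -0.06 to 0.10 (DUSP10) for glucose in CF cells, -0.01 to 0.16 (DUSP1, lines in high glucose), -0.13 to 0.03 (DUSP10, interaction), -0.01 to 0.07 (SPRED2, glucose in WT cells) and -0.19 to 0.02 (SPRY4, lines in normal glucose). DUSP6 and SPRY1, with 8 to 60 counts in libraries of the glucose groups, are the genes whose small differences this depth limits most.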
